A study of Homo sapiens with 8 samples.

Results

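The 51 genes described here encode the factors that start and extend protein chains on cytosolic ribosomes, the eukaryotic initiation factors (eIF, symbols starting with EIF1 to EIF6) and elongation factors (eEF, symbols starting with EEF1 or EEF2). They were chosen by symbol among the protein-coding genes, leaving out the eIF2 kinases, the exon junction helicase EIF4A3, and the kinase and methyltransferases that modify elongation factors. They make up 51 of the 17912 genes in the tables, and all 51 had a mean signal of at least 1 and were tested. The study treated the established line NKM-1, human leukemia cells of myeloid origin grown in culture, for 48 h with the compound SF153 at 30 uM or with its solvent DMSO, and the title of the series calls the compound an inhibitor of UHM splicing factors (proteins with a U2AF homology motif). There were 4 libraries for each treatment, 2 in each of 2 numbered batches, and a name such as SF153 2.1 gives the batch and then the library. Both groups were the same cell line, with no other genetic change or agent named in the labels, and 1 line limits what the data say of other cells. The labels do not say that the 2 libraries of a treatment and batch came from separate cultures, so the p-values may reflect technical spread alone. Where 4 values are listed for a gene, they are those of libraries 1.1, 1.2, 2.1 and 2.2 in that order.

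Total RNA was sequenced after removal of ribosomal RNA. The values are a length-corrected signal of the TPM type, which is relative to the rest of its library. Its sums differed between libraries, so a signal is not an exact share. A lower signal is not a measured loss of molecules per cell. Fewer cells holding an mRNA and less of it per cell cannot be told apart in such samples. The depth of the libraries is unknown. Their signals summed to 828381 and 835840 in SF153 2.1 and 2.2, and to between 990815 and 1027119 in the other 6. Mitochondrial transcripts made up 16.8% of both SF153 libraries of batch 2 against 9.17% to 9.92% of the other 6. The small nuclear RNA RN7SK made up 18.2% to 18.7% of both SF153 libraries of batch 1 against 11.4% to 13.9% of the other 6. Of 7 myeloid markers 6 were analysed and all 6 had a mean signal above 1, with sums of 1355 to 1376 in DMSO and 937 to 1136 in SF153. MPO made up most of that sum (717 to 763 in DMSO, 420.2 to 543 in SF153), and CD33 went the other way without overlap (68.4 to 83.3, then 90.5 to 108.9). Markers of T cells, erythroid cells and epithelium were looked up and gave no value to use here, and the only B cell marker with values was CD79A at 24.7 to 29.4 in DMSO and 3.39 to 10.1 in SF153. The part of these shifts in the results below was not tested, except where a ratio within a library or another scaling is given.

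Initiation factors bring the small ribosomal subunit, the initiator tRNA and the capped end of an mRNA together, scan to the start codon and let the large subunit join. Elongation factors then bring each aminoacyl-tRNA to the ribosome and move the ribosome along. Several of these mRNAs belong to the 5′ terminal oligopyrimidine (TOP) class, which also holds the ribosomal protein mRNAs: they start with a cytosine followed by a run of pyrimidines, and their translation depends on mTOR signalling.

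Most of the factor mRNAs were lower in SF153, the elongation factors and many eIF3 subunits most of all, whereas the subunits of the exchange factor eIF2B had small differences and 1 cap-complex scaffold, EIF4G3, was higher. With limma on log2(signal + 1) and adjustment over all 15542 genes tested, 41 of 51 members (80.4%) were lower and 1 was higher at an adjusted p below 0.05. Over all genes tested 24.3% were called lower and 13.0% higher. Of the 11085 protein-coding genes tested, 32.5% were called lower and 1214 genes higher. The median log2 difference of the members was -0.66, against -0.034 for all genes tested and -0.15 for the 11085 protein-coding ones. A fall of 2-fold or more was called for 19 members, and for 7.78% of all genes. The 4 SF153 values lay below all 4 DMSO values for 39 members and above them for 1, while 23.6% and 13.2% of all genes separated in these directions. The 9 members without a call were EIF1AD, EIF2B2 to EIF2B5, EIF2D, EIF3CL, EIF4EBP3 and EIF4ENIF1. Removing mitochondrial and small RNA genes before rescaling moved the median of all genes by 0.312 on the log2 scale. Relative to the median of all genes, that of the members was -0.63 as deposited, -0.61 after that rescaling and -0.54 after quantile normalization.

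**Figure D1:**
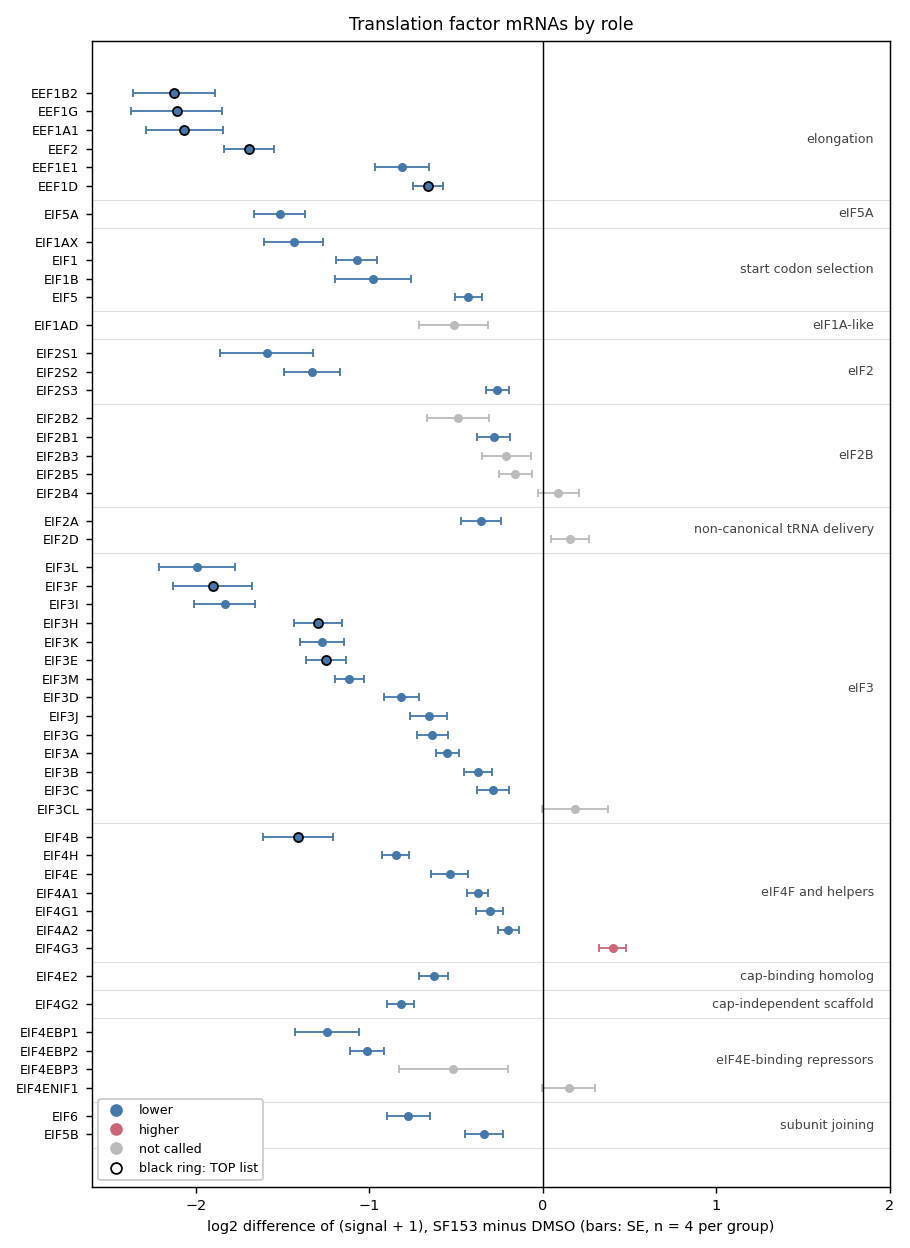
Log2 difference of (signal + 1), SF153 minus DMSO, for each of the 51 members, grouped by role (points, with SE bars, n = 4 per group; blue lower, red higher, grey not called, black ring on the TOP list). All 6 elongation factors lie to the left of 0, the 5 eIF2B subunits lie between -0.49 and 0.088, and EIF4G3 is the only red point.

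The first bases of a transcript define the TOP class, so the starts of members with large and small differences are shown. Each line gives 10 bases before and 20 bases from a start listed by RefSeq (GRCh38.p14), 5′ to 3′ on the gene's strand, with a pyrimidine run in capitals where it opens with C at the first transcribed base and goes on with at least 4 more of C or T. The first 5 members have such a run and fell by more than 1 on the log2 scale, the next 2 have one and differed by less than 0.3, and the last 3 have none and fell by more than 1.5. Among the last 3, EEF1G is nevertheless on the TOP list given below, so the list and the run do not coincide. EIF2D, not shown, has a run and a difference of 0.16 that was not called.
EEF1A1, chr6:73521013-73521042, - strand: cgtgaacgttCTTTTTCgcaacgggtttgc
EEF1B2, chr2:206159885-206159914, + strand: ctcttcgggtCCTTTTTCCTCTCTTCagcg
EEF2, chr19:3985444-3985473, - strand: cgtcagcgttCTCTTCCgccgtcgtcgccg
EIF3F, chr11:7987327-7987356, + strand: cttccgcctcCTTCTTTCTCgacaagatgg
EIF4B, chr12:53006446-53006475, + strand: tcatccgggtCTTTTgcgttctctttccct
EIF2S3, chrX:24054946-24054975, + strand: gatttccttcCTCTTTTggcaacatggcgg
EIF4A2, chr3:186783567-186783596, + strand: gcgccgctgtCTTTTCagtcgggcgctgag
EEF1G, chr11:62573872-62573901, - strand: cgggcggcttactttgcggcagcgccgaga
EIF3I, chr1:32222397-32222426, + strand: ttccggtcttactcacgttgcggccttcct
EIF2S1, chr14:67360318-67360347, + strand: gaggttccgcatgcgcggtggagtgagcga
A start was listed for 42 of the 51 members. Such a run opened 12 of them (28.6%), against 5.14% of 27305 genes with a listed start, tested here or not, searched on the gene's own strand. Among the protein-coding genes tested, 712 had a run and 8282 had a listed start without one. The 12 were EEF1A1, EEF1B2, EEF2, EIF2A, EIF2D, EIF2S3, EIF3D, EIF3F, EIF3K, EIF3M, EIF4A2 and EIF4B. EEF1B2 has another listed start without a run. Of these 12, 11 were lower, with a median of -1.20. Of the 30 with a listed start and no run, 22 were lower and 1 was higher, with a median of -0.53. Among all protein-coding genes tested, the 712 with a run had a median of -0.26 and 314 lower calls, and the 8282 without one had a median of -0.15 and 2687 lower calls. The 7 members that have a run but are not on the TOP list used here had a median of -0.36, with 6 lower. Without mitochondrial and small RNA genes these 7 had 3 lower and 1 higher (median -0.021), and the 30 without a run had 14 lower and 3 higher (median -0.25). Of all genes, 13.8% were lower and 34.9% higher in that setting (median 0.28). A match in this window is a description of letters and does not show which start NKM-1 uses.

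The elongation factors included the most abundant member and the 3 most negative differences, with 6 of 6 lower and a median of -1.88. EEF1A1 encodes the GTPase that carries aminoacyl-tRNA to the ribosome. Its signal was 4076, 4093, 3785 and 3682 in DMSO, and 1265, 1294, 671 and 686 in SF153. The groups did not overlap, and the SF153 values were lower in batch 2 than in batch 1. The mean moved from 3909 ± 207 to 979 ± 347 (SD, n = 4), which is 25.0% of the DMSO level, with a log2 difference of -2.07 ± 0.22 (SE, limma adjusted p = 0.000119). EEF1A1 alone held 31.9% to 32.9% of the summed signal of all 51 members in DMSO and 14.7% to 21.9% in SF153.

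The eEF1B complex recharges eEF1A1 with GTP. EEF1B2, its exchange subunit, had 533, 541, 447 and 447 in DMSO, against 154, 159.5, 78.9 and 79.7 in SF153. Its log2 difference of -2.12 ± 0.24 (SE, limma adjusted p = 0.000144) was the most negative of all members. For EEF1G, the subunit that anchors the complex, DMSO libraries had 789, 779, 734 and 737, and SF153 libraries had 258, 259, 120.3 and 116, a log2 difference of -2.11 ± 0.26 (SE, limma adjusted p = 0.000257). Both genes separated the groups by a wide gap, again with the lowest values in SF153 batch 2. The ratio of EEF1A1 to EEF1B2 within a library was 7.56 to 8.46 in DMSO and 8.11 to 8.61 in SF153, and that of EEF1A1 to EEF1G was 4.998 to 5.252 and 4.89 to 5.90, so the ranges of the treatments overlapped for both ratios. Within each batch they did not. The first ratio was higher in SF153 in both batches. The second was lower in SF153 in batch 1 (4.892 and 4.997, DMSO 5.167 and 5.252) and higher in batch 2 (5.575 and 5.895, DMSO 5.158 and 4.998). Neither ratio was tested.

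EEF1D, the other exchange subunit of eEF1B, differed less. Its signal was 398, 384, 419 and 421 in DMSO and 302, 238, 245.9 and 242 in SF153. The groups did not overlap and SF153 1.1 stood above the other 3. The log2 difference was -0.66 ± 0.09 (SE, limma adjusted p = 0.000338), but it was 0.068 and not called after quantile normalization, and -0.18 and not called once a trend on length and signal was removed. Within libraries the ratio of EEF1D to EEF1G was 0.493 to 0.571 in DMSO and 0.920 to 2.08 in SF153, with no test run on it. EEF2, the GTPase that moves the ribosome by a codon, had 791, 779, 665 and 676 in DMSO and 264, 273, 177 and 194 in SF153. All 4 SF153 libraries lay far below DMSO, at a log2 difference of -1.69 ± 0.15 (SE, limma adjusted p = 4.63e-05). EEF1E1, a small protein of the multi-tRNA synthetase complex that carries an elongation factor symbol, moved from 22.4 ± 1.43 to 12.6 ± 2.87 (SD, n = 4), or -0.81 on the log2 scale (limma adjusted p = 0.00302).

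**Figure D2:**
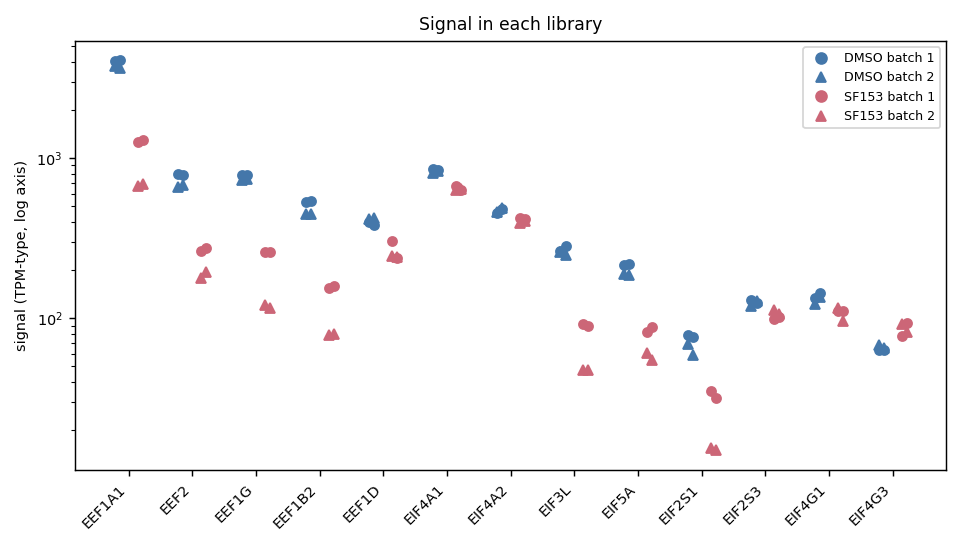
Signal (TPM-type, log axis) of 13 members in each library, with DMSO in blue, SF153 in red, circles for batch 1 and triangles for batch 2. EEF1A1 drops from 3682 to 4093 in DMSO to between 671 and 1294 in SF153, whereas EIF4A1 and EIF4A2 stay within a narrow band and EIF4G3 alone has its red points above the blue ones.

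EIF5A, the factor with a hypusine residue that helps ribosomes past difficult peptide bonds, was also among the large differences. It had 216, 219.5, 189.5 and 187 in DMSO, against 82.1, 88.1, 60.6 and 54.9 in SF153. The highest SF153 value lay far below the lowest DMSO value, and the log2 difference was -1.52 ± 0.15 (SE, limma adjusted p = 7.94e-05).

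The factors of start codon selection were lower in 4 of 4 cases, with a median of -1.03. EIF1 and EIF1AX keep the scanning ribosome open until the start codon is met. EIF1AX had 27.2, 21.0, 19.0 and 15.2 in DMSO and 6.76, 8.15, 6.43 and 6.08 in SF153, a log2 difference of -1.44 ± 0.17 (SE, limma adjusted p = 0.000182). EIF1, at a higher level, had 311, 329.7, 266 and 266 in DMSO and 149.6, 164, 127 and 118 in SF153, a log2 difference of -1.07 ± 0.12 (SE, limma adjusted p = 0.000138). Neither gene overlapped between groups. EIF1B, the close relative of EIF1, had 30.03, 26.9, 16.9 and 22.9 in DMSO and 16.6, 12.5, 8.85 and 9.47 in SF153. Its lowest DMSO value lay just above its highest SF153 value. The log2 difference of EIF1B was -0.98 ± 0.22 (SE, limma adjusted p = 0.00630), and the call was lost when the libraries of a treatment and batch were averaged. The ratio of EIF1 to EIF1B was 10.4 to 15.8 in DMSO and 9.00 to 14.3 in SF153, a log2 change of -0.092 (exact permutation test, two-sided, p = 0.657, 4 against 4). EIF5, which makes eIF2 hydrolyse its GTP at the start codon, moved from 231 ± 20.4 to 171 ± 9.04 (SD, n = 4), or -0.43 on the log2 scale (limma adjusted p = 0.00238), and was not called after quantile normalization (-0.012), after removal of mitochondrial and small RNA genes (-0.088) or with the trend removed (-0.20). EIF1AD, a nuclear protein related to eIF1A, had 21.4, 29.1, 18.6 and 18.7 in DMSO and 16.97, 20.2, 11.8 and 11.8 in SF153. The groups of EIF1AD overlapped, and its log2 difference of -0.51 ± 0.20 (SE, limma adjusted p = 0.0699) was not called. With batch as a block its limma adjusted p was 0.00792, within a range of 0.00792 to 0.475 over all alternatives, and without SF153 1.2 its log2 difference was -0.66 and called.

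eIF2 carries the initiator tRNA to the ribosome, and its 3 subunits were all lower but by unequal amounts. EIF2S1 encodes the alpha subunit, the one phosphorylated in the integrated stress response. It had 78.7, 75.8, 69.4 and 58.5 in DMSO and 35.2, 31.8, 15.4 and 14.95 in SF153, a log2 difference of -1.59 ± 0.27 (SE, limma adjusted p = 0.00140). The SF153 values of batch 2 were less than those of batch 1, and the difference was -1.18 in batch 1 and -1.999 in batch 2. EIF2S2, the beta subunit, had 29.9, 32.2, 25.6 and 27.4 in DMSO and 13.3, 13.3, 9.57 and 7.98 in SF153, a log2 difference of -1.33 ± 0.16 (SE, limma adjusted p = 0.000218). EIF2S3 encodes the gamma subunit, which binds GTP and the initiator tRNA, and it differed far less. Its values were 131, 125, 119 and 128 in DMSO and 99.4, 101, 112.2 and 106 in SF153. The groups came close to each other without overlapping, at a log2 difference of -0.26 ± 0.07 (SE, limma adjusted p = 0.0118) that turned to 0.079 and was not called without mitochondrial and small RNA genes. EIF2S3 was also not called with median-of-ratios scaling (-0.19), after quantile normalization (-0.071), with the trend removed (-0.035), with the libraries averaged (-0.26) or in batch 2 alone (-0.18). Within libraries the ratio of EIF2S1 to EIF2S3 was 0.458 to 0.608 in DMSO and 0.138 to 0.355 in SF153, and that of EIF2S2 to EIF2S3 was 0.214 to 0.258 and 0.0756 to 0.134, neither tested.

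eIF2B recharges eIF2 with GTP and is the enzyme that phosphorylated eIF2 blocks. Of its 5 subunits 1 was called lower, against the 24.3% of all genes and 32.5% of protein-coding genes, and the median was -0.21. EIF2B5, the catalytic subunit and the most abundant of them, had 49.2, 47.7, 53.2 and 49.7 in DMSO and 45.6, 38.9, 52.2 and 42.8 in SF153. These groups overlapped, and the log2 difference of -0.16 ± 0.09 (SE, limma adjusted p = 0.223) was not called. EIF2B1 had 29.7, 35.3, 32.1 and 32.2 in DMSO and 24.5, 30.1, 27.2 and 24.0 in SF153. Its groups also overlapped, and its call, at a log2 difference of -0.28 ± 0.10 (SE, limma adjusted p = 0.0423), was lost without any 1 of DMSO 1.2, DMSO 2.1, DMSO 2.2, SF153 1.1, SF153 2.1 and SF153 2.2 (-0.30 to -0.24). EIF2B1 was also not called in either batch alone, with the libraries averaged, without the intensity trend or under any other scaling, where it was -0.21 with median-of-ratios, -0.11 with the trend removed, -0.086 after quantile normalization and, with its sign turned, 0.050 without mitochondrial and small RNA genes. EIF2B2 had a log2 difference of -0.49 (limma adjusted p = 0.0558), which passed with batch as a block (limma adjusted p = 0.0415, in a range of 0.0134 to 0.412 over the alternatives) and without SF153 1.2 (-0.63). EIF2B3 and EIF2B4 had -0.21 and 0.088 and were not called, but EIF2B4 was called higher without mitochondrial and small RNA genes (0.43). EIF2A and EIF2D bring initiator or other tRNA to ribosomes without eIF2. EIF2A had 55.9, 73.1, 69.4 and 60.9 in DMSO and 59.2, 43.7, 51.1 and 47.7 in SF153. The groups overlapped, and the log2 difference of -0.36 ± 0.11 (SE, limma adjusted p = 0.0344) was not called without any 1 of DMSO 1.2, DMSO 2.1, DMSO 2.2, SF153 1.2, SF153 2.1 and SF153 2.2 (-0.38 to -0.29). EIF2A was also not called in either batch alone, with the libraries averaged, without the intensity trend or under any other scaling, where its difference was -0.28 with median-of-ratios, -0.18 after quantile normalization, -0.17 with the trend removed and -0.021 without mitochondrial and small RNA genes. EIF2D had a log2 difference of 0.16 and was not called, but it was called higher after quantile normalization (0.37), without mitochondrial and small RNA genes (0.50) and with the trend removed (0.38).

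eIF3 is the largest initiation factor, a scaffold that holds the small subunit, eIF4F and the mRNA together. Of its 14 genes 13 were called lower, with a median of -0.97, but they spread over almost the whole range of the members. EIF3L had 264, 284, 259.6 and 249.8 in DMSO and 92.5, 88.9, 47.4 and 47.2 in SF153, a log2 difference of -1.99 ± 0.22 (SE, limma adjusted p = 0.000136). EIF3F had 127, 116.7, 110.5 and 106 in DMSO and 41.9, 41.8, 23.0 and 19.8 in SF153, a difference of -1.90 ± 0.23 (SE, limma adjusted p = 0.000212). EIF3I, a small repeat protein that binds EIF3B, had 79.1, 75.4, 60.2 and 58.4 in DMSO and 23.5, 22.1, 14.5 and 14.8 in SF153, a difference of -1.83 ± 0.18 (SE, limma adjusted p = 7.43e-05). In these 3 subunits every SF153 library held less than the DMSO libraries, and batch 2 was the lower of the SF153 batches. EIF3E, the most abundant subunit, had 401, 392, 345 and 360.4 in DMSO and 173, 188, 129 and 144 in SF153, a log2 difference of -1.25 ± 0.12 (SE, limma adjusted p = 6.96e-05).

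The other subunits ranged from -1.30 for EIF3H and -1.27 for EIF3K to -0.38 for EIF3B and -0.29 for EIF3C. EIF3M had -1.12, EIF3D, which can bind a cap by itself, -0.82, EIF3J -0.66, EIF3G -0.64 and EIF3A, the largest subunit, -0.55. The 7 subunits that budding yeast lacks (EIF3D, EIF3E, EIF3F, EIF3H, EIF3K, EIF3L and EIF3M) had a median of -1.27, in a range of -1.99 to -0.82. The 6 that yeast shares (EIF3A, EIF3B, EIF3C, EIF3G, EIF3I and EIF3J) had a median of -0.59, in a range of -1.83 to -0.29. All 13 were called lower, this grouping was made after the values were seen, and the difference between the groups was not tested. The grouping overlaps with TOP traits: EIF3E, EIF3F and EIF3H are on the TOP list, and EIF3D, EIF3F, EIF3K and EIF3M have a pyrimidine run. No subunit that yeast shares is on the list or had a run, though EIF3A and EIF3G had no listed start. The part of each trait was not tested. Within libraries, the ratio of EIF3L to EIF3B was 1.48 to 1.93 in DMSO and 0.418 to 0.766 in SF153. EIF3B was not called after quantile normalization (-0.16), without mitochondrial and small RNA genes (-0.035), in batch 1 alone (-0.23), with the libraries averaged (-0.37) or with the trend removed (-0.058). EIF3C was not called without any 1 of DMSO 1.1, DMSO 1.2, DMSO 2.1, DMSO 2.2, SF153 1.2 and SF153 2.1 (-0.31 to -0.22), and its sign turned without mitochondrial and small RNA genes (0.052) and with the trend removed (0.020). EIF3C was also not called with median-of-ratios scaling (-0.21), after quantile normalization (-0.056), with the libraries averaged, without the intensity trend or in either batch alone. EIF3C and EIF3CL are near-identical copies between which reads can be split. EIF3CL had a log2 difference of 0.19 and was called, as higher, only without mitochondrial and small RNA genes (0.52), and the sum of the pair moved from 158.7 ± 5.04 to 134.3 ± 17.4 (SD, n = 4).

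The eIF4F complex binds the mRNA cap (EIF4E), unwinds the leader (EIF4A1 or EIF4A2) and bridges to the ribosome (EIF4G1 or EIF4G3), and EIF4B and EIF4H stimulate the helicase. Of these 7 genes 6 were lower and 1 higher in the values as deposited, with a median of -0.38. Without mitochondrial and small RNA genes 2 were lower and 1 higher (median -0.033), against 13.8% and 34.9% of all genes (median 0.28). After quantile normalization and with the trend removed 3 were lower and 3 higher (medians -0.11 and -0.16). Of all genes, 18.2% and 19.6% were lower in these settings, in that order, and 20.8% and 18.2% higher (medians 0.064 and 0.015). With the libraries averaged 3 were lower and 1 higher, against 16.2% and 5.86% of all genes. EIF4B, on the TOP list, had 247, 230.3, 219 and 227 in DMSO and 111, 120.3, 61.7 and 67.1 in SF153, a log2 difference of -1.41 ± 0.20 (SE, limma adjusted p = 0.000551). Its relative in function EIF4H had 164, 167, 156 and 162 in DMSO and 99.1, 95.7, 80.4 and 84.5 in SF153, a difference of -0.85 ± 0.08 (SE, limma adjusted p = 6.85e-05). Both genes separated the groups in each batch. EIF4E had 50.4, 54.8, 53.0 and 41.3 in DMSO and 37.2, 36.2, 31.2 and 31.3 in SF153, a difference of -0.54 ± 0.11 (SE, limma adjusted p = 0.00354). Its groups did not overlap, but it was not called without mitochondrial and small RNA genes (-0.20) or in batch 2 alone (-0.57).

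The helicase genes were among the most abundant members and among those that differed least. EIF4A1 had 856, 845, 814 and 826 in DMSO and 669, 637, 629 and 639.7 in SF153. The groups did not overlap, and the log2 difference was -0.38 ± 0.06 (SE, limma adjusted p = 0.00125), but it was 0.65 and called higher after quantile normalization, 0.20 and called higher with the trend on length and signal removed, and -0.033 and not called without mitochondrial and small RNA genes. It was not called with the libraries averaged (-0.38). EIF4A2 moved from 470.0 ± 14.1 to 409 ± 12.1 (SD, n = 4), a difference of -0.20 whose call was lost without any 1 of DMSO 1.2, DMSO 2.2, SF153 2.1 and SF153 2.2 (-0.19 to -0.18) and whose sign turned after quantile normalization (0.74), without mitochondrial and small RNA genes (0.14) and with the trend removed (0.35). EIF4A2 was also not called with median-of-ratios scaling (-0.12), with the libraries averaged, without the intensity trend or in batch 1 alone (-0.16). Ratios within a library do not depend on a scaling with 1 factor per library. EEF1A1 was 4.46 to 4.84 times EIF4A1 in DMSO and 1.07 to 2.03 times in SF153, and EEF2 was 0.817 to 0.924 times EIF4A1 and then 0.282 to 0.429 times.

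The scaffold genes differed in direction or size in the deposited values. EIF4G1 had 134, 144, 123 and 136 in DMSO and 111, 111, 115 and 96.1 in SF153, a log2 difference of -0.31 ± 0.08 (SE, limma adjusted p = 0.0135) that was 0.034 and not called without mitochondrial and small RNA genes. It was also not called after quantile normalization (-0.11), with the trend removed (-0.16), with the libraries averaged (-0.31) or in batch 2 alone (-0.29). EIF4G3 encodes a scaffold with the same domains, and it had 63.1, 63.0, 67.6 and 65.3 in DMSO and 77.3, 94.0, 91.6 and 81.9 in SF153. All 4 SF153 libraries lay above DMSO, with a log2 difference of 0.40 ± 0.08 (SE, limma adjusted p = 0.00320). It was 0.43 in batch 1 and 0.38 in batch 2, and in batch 1 alone it was not called. EIF4G2 encodes a scaffold that lacks the EIF4E binding site and serves cap-independent initiation. It had 312, 362, 307 and 327 in DMSO and 199.6, 190.2, 171 and 179 in SF153, a log2 difference of -0.82 ± 0.08 (SE, limma adjusted p = 7.56e-05). The level of EIF4G1 was 1.82 to 2.29 times that of EIF4G3 in DMSO and 1.17 to 1.43 times in SF153, a log2 change of -0.71. Against EIF4G2 it was 0.398 to 0.428 times and 0.538 to 0.675 times, a change of 0.51. For EIF4A1 over EIF4A2 the ratio was 1.70 to 1.88 and 1.54 to 1.59, a change of -0.18. In each of these 3 ratios the groups did not overlap, and the exact permutation test (two-sided) gave p = 0.0286, the smallest that 4 against 4 allows, and 0.0571 after adjustment over 6 pairs, so none passed the threshold of 0.05.

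**Figure D3:**
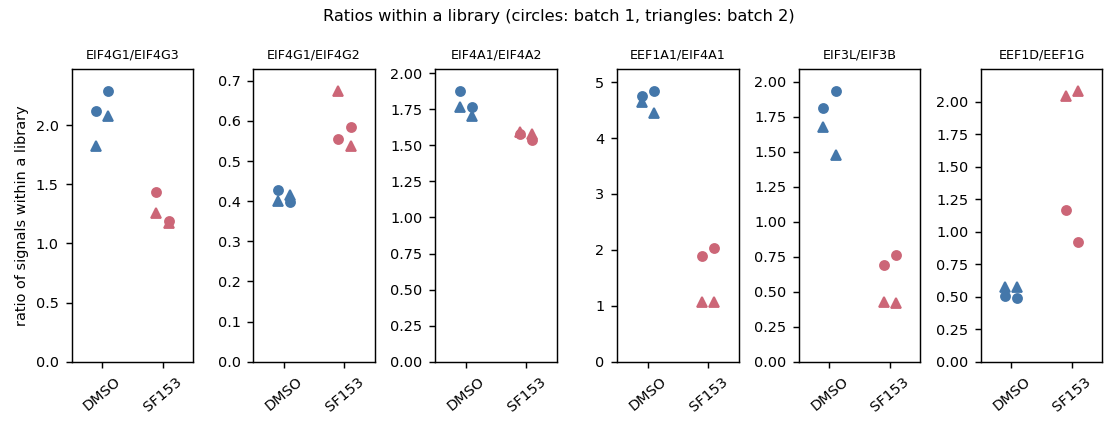
Ratio of the signals of 2 members within each library (linear axes from 0; blue DMSO, red SF153, circles batch 1, triangles batch 2). EIF4G1 over EIF4G3 goes from 1.82 to 2.29 in DMSO to 1.17 to 1.43 in SF153, EEF1A1 over EIF4A1 from 4.46 to 4.84 to 1.07 to 2.03, and EEF1D over EEF1G from 0.493 to 0.571 to 0.920 to 2.08.

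EIF4E2, a relative of EIF4E that binds caps and takes part in silencing, had 42.8, 39.8, 43.2 and 48.7 in DMSO and 29.3, 26.9, 28.6 and 26.4 in SF153, a log2 difference of -0.63 ± 0.08 (SE, limma adjusted p = 0.000343). Its groups did not overlap, and the ratio of EIF4E to EIF4E2 was 0.849 to 1.38 in DMSO and 1.09 to 1.35 in SF153 (exact permutation test, two-sided, p = 0.657). The 4E-binding proteins hold EIF4E away from the scaffold until mTOR phosphorylates them. EIF4EBP1 had 55.1, 49.1, 42.7 and 37.2 in DMSO and 26.3, 19.1, 13.8 and 17.5 in SF153, a log2 difference of -1.24 ± 0.18 (SE, limma adjusted p = 0.000674). EIF4EBP2 had 31.8, 31.9, 27.9 and 28.3 in DMSO and 15.8, 15.5, 12.8 and 13.5 in SF153, a difference of -1.01 ± 0.10 (SE, limma adjusted p = 7.86e-05). The mRNAs of both repressors were thus lower, with groups apart, and their ratio changed by -0.23 on the log2 scale (exact permutation test, two-sided, p = 0.20, adjusted 0.30). EIF4EBP3, which shares its exons with a readthrough transcript from ANKHD1, had a low signal and a log2 difference of -0.52 that was not called. EIF4ENIF1, which carries EIF4E to the nucleus and to processing bodies, had 0.15 and was not called, but it was called higher without mitochondrial and small RNA genes (0.49).

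The last steps before elongation involve EIF5B, the GTPase that joins the subunits, and EIF6, which keeps free large subunits apart from small ones. EIF6 had 38.7, 41.9, 34.7 and 34.8 in DMSO and 26.5, 20.03, 22.1 and 17.9 in SF153, a log2 difference of -0.78 ± 0.12 (SE, limma adjusted p = 0.00100). EIF5B had 31.2, 35.4, 31.6 and 35.7 in DMSO and 23.9, 30.1, 22.5 and 29.05 in SF153. The groups of EIF5B lay close together without overlapping, and its call, at a log2 difference of -0.34 ± 0.11 (SE, limma adjusted p = 0.0355), was lost without any 1 of DMSO 1.2, DMSO 2.2, SF153 1.1 and SF153 2.1 (-0.31 to -0.27). EIF5B was also not called in either batch alone, with the libraries averaged, without the intensity trend or under any other scaling, where its difference was -0.0066 without mitochondrial and small RNA genes, -0.14 after quantile normalization, -0.26 with the trend removed and -0.27 with median-of-ratios.

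The batches ranked the members alike but differed in size. The median difference of the members was -0.59 in batch 1 and -0.78 in batch 2, and 42 of 51 members (82.4%) were more negative in batch 2, against 54.5% of all genes tested. All 9 members of the TOP list were among them. For EEF1G the difference was -1.60 in batch 1 and -2.63 in batch 2, and for EIF4B it was -1.04 in batch 1 and -1.78 in batch 2. EIF3J and EIF1AX went the other way, with -0.80 in batch 1 and -0.51 in batch 2 for EIF3J, and -1.56 in batch 1 and -1.31 in batch 2 for EIF1AX. Across the 51 genes the differences of both batches had a Pearson r of 0.93 and a Spearman rho of 0.94, given as a description because each pair of batch values shares a gene's length and abundance. Libraries of a treatment and batch differed by a median of 0.0805 to 0.118 on the log2 scale over the members. The batches of SF153 differed by 0.238 and those of DMSO by 0.107. In both treatments most members were higher in batch 1, 37 of 51 in DMSO and 44 of 51 in SF153. The same count over all genes is not given here, so these counts cannot be read as particular to the members. The difference between batches was not tested. The summed signal of a library, its mitochondrial share and its RN7SK share moved with the same split, as given above. Their part in it was not tested. As a percentage of the summed signal, the members held 0.586% and 0.589% in SF153 batch 1, and 0.549% and 0.551% in SF153 batch 2.

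**Figure D4:**
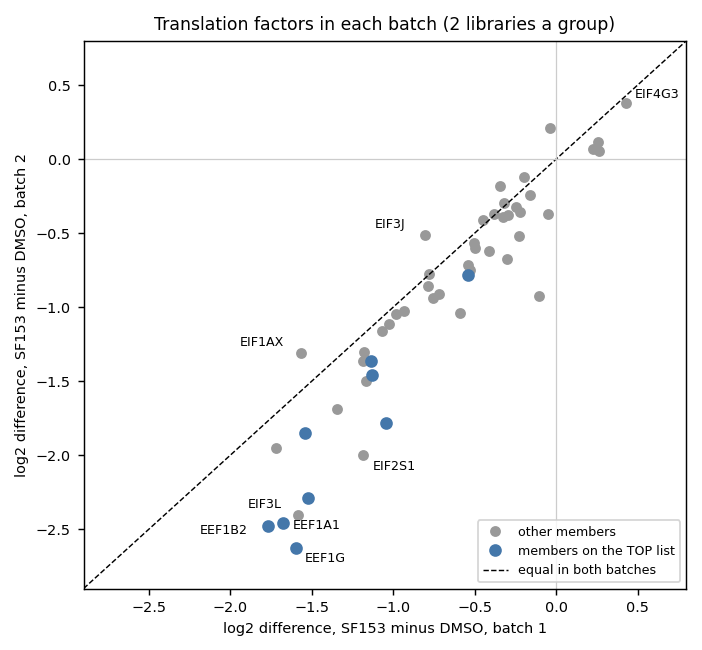
Log2 difference, SF153 minus DMSO, in batch 1 (horizontal) against batch 2 (vertical) for the 51 members, from 2 libraries a group in each batch, with the TOP list in blue and the dashed line marking equal values. All 9 blue points lie below the line, as do 42 of the 51 points.

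The factors as a group took a smaller share of the libraries. Their summed signal was 11509.8 to 12522 in DMSO and 4552 to 5994 in SF153, which is 1.12% to 1.26% and 0.549% to 0.589% of the library. With mitochondrial and small RNA genes left out of the total, the shares were 2.15% to 2.24% and 1.09% to 1.34%. Members with a higher DMSO signal tended to have the more negative difference (Pearson r = -0.48, Spearman rho = -0.43, across 51 genes, a description). With transcript length the same measures were 0.10 and 0.07, while over 11044 protein-coding genes the Pearson r with length was 0.30.

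The TOP list used here (EEF1A1, EEF1B2, EEF1D, EEF1G, EEF2, EIF3E, EIF3F, EIF3H and EIF4B) was lower in 9 of 9, with a median of -1.70. Without mitochondrial and small RNA genes it was also lower in 9 of 9 (median -1.355). The other 42 members had a median of -0.54, with 32 lower and 1 higher. Without mitochondrial and small RNA genes these 42 had 21 lower and 5 higher (median -0.25), against 13.8% and 34.9% of all genes (median 0.28). With the trend on length and signal removed the medians were -1.27 on the list and -0.47 off it. The median signal of a gene was 305.2 on the list and 45.45 off it, and the part of abundance was not tested. The cytosolic ribosomal protein mRNAs, the main body of the TOP class, were lower in 82 of 82, with a median of -1.91 (-1.571 without mitochondrial and small RNA genes). Another 39 translation genes, such as regulators, poly(A)-binding and release factors, were not sorted by TOP class and may include TOP mRNAs. Of these, 38 were tested, and 19 were lower and 2 higher, with a median of -0.35. Without mitochondrial and small RNA genes 10 were lower and 8 higher (median -0.055), where 13.8% of all genes were lower and 34.9% higher. With the libraries averaged 15 were lower and 1 higher, against 16.2% and 5.86% of all genes. The 6 largest differences among them were in BTF3 (-2.08) and NACA (-1.91), the nascent chain complex, TPT1 (-1.90), the poly(A)-binding protein gene PABPC1 (-1.35), its partner PAIP1 (-1.29) and the methyltransferase EEF1AKMT4 (-1.16), each called lower by limma. PABPC1 moved from 1280.3 ± 41.2 to 509 ± 94.4 and TPT1 from 2104 ± 155 to 588 ± 205 (SD, n = 4). The 2 that were higher were the kinase genes MKNK1 (0.38), whose product phosphorylates EIF4E, and EIF2AK2 (0.51), whose product phosphorylates EIF2S1. MKNK1 was not called when the libraries of a treatment and batch were averaged.

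**Figure D5:**
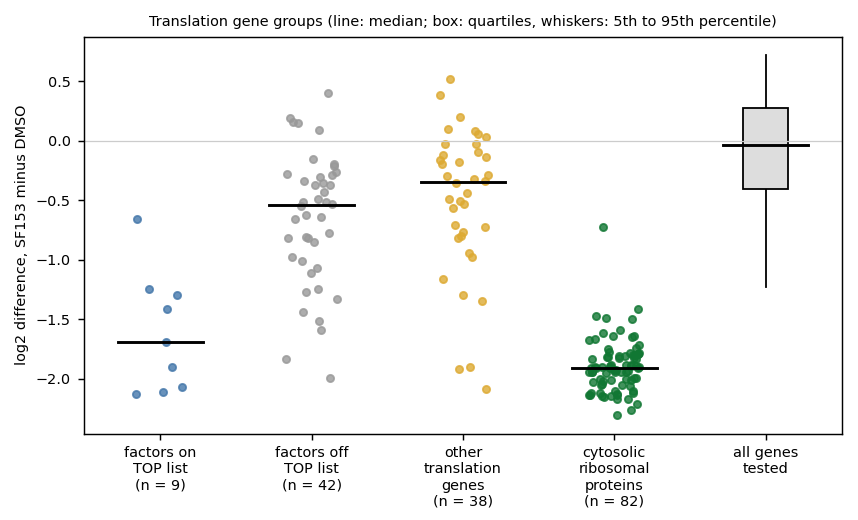
Log2 difference, SF153 minus DMSO, of each gene in 4 groups of translation genes (points; black lines, medians), beside all 15542 genes tested (box, quartiles; whiskers, 5th to 95th percentile). The medians are -1.70 for factors on the TOP list, -0.54 for the other factors, -0.35 for other translation genes (not sorted by TOP class) and -1.91 for cytosolic ribosomal proteins.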

How the data were processed

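The authors' deposited tables hold 1 value per gene and library, recorded here as a signal. The file labels call it both CPM and TPM, its sums differ between libraries, and no source used here gives the scaling behind that. CASAVA 1.8.2, STAR, Salmon, edgeR and GRCh38 are named, without roles, per the submitters' processing notes. Depth is unknown, so no counting interval is given. The planned test had assumed TPM and was applied to the signal.

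From these values, limma 3.58.1 in R 4.3.3 compared 4 SF153 with 4 DMSO libraries on log2(signal + 1), with an intensity trend, for the 15542 genes with a mean of at least 1, and called genes at a Benjamini-Hochberg adjusted p below 0.05 over all of them. The scale understates changes of low genes. The script was tested on simulated data. Ratios of paralogs used exact permutation tests over 6 pairs. Starts came from RefSeq, and lengths from GENCODE 29. Members, roles and lists were chosen with earlier results of these data known. Up to 3 called members with the largest differences and the most abundant member of each role, plus EEF1D, EEF2, EIF4G1 and EIF4G3, are given in every library, the last 4 chosen after their values were seen.

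The labels give each sample a batch, and this label is the only ground for the pairing. Over all genes tested the pairing left little trace: deviations of libraries of the same batch and different treatment had a mean r of 0.026. Among the members, 37 of 51 in DMSO and 44 of 51 in SF153 were higher in batch 1 than in batch 2, with no count over all genes beside them. Alternatives covered pseudocounts of 0.1 and 5, filters, scalings, the variance model, a replicate block, averaging, single batches, each library left out, and removal of a trend on length and signal. Leaving out both SF153 libraries of a batch was added after seeing the data.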

Additional observations from a re-analysis of the deposited data

Results flagged for a closer look

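In each of 102 groups of 4 libraries (51 members, both treatments), the highest and the lowest value were compared with the rest by Dixon's ratio, which chance alone exceeds in about 1 group in 20. A single value stood apart, EEF1D in SF153 1.1 at 301.7, where the other 3 SF153 libraries had 238.2 to 245.9. It lay on the DMSO side, and EEF1D was called lower with that library left out as well.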

How the results depend on the processing

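The pseudocount, the filter on low values, limma without the intensity trend, median-of-ratios scaling and averaging gave 31 to 42 lower calls and 1 higher call. EIF2B2 was added with a mean signal of at least 5. Of all genes, these settings called between 16.2% (averaging) and 32.7% (mean signal of at least 5) lower. They called between 5.86% (averaging) and 16.5% (median-of-ratios) higher. Leaving out each library in turn gave 36 to 41 lower calls, 1 higher call and a median of -0.74 to -0.64. Of all genes, 21.2% to 23.3% were then lower and 10.0% to 11.5% higher. With the replicate block (paired by batch) 43 members were lower, against 24.9% of all genes (13.3% higher). EIF1AD and EIF2B2 were added (neither was called with the libraries averaged), and no other call of a member changed. Quantile normalization gave 4 higher and 30 lower calls with a median of -0.47 (20.8% of all genes higher and 18.2% lower), removal of mitochondrial and small RNA genes 5 and 30 with -0.33 (34.9% and 13.8%; EIF2B4, EIF2D, EIF3CL, EIF4ENIF1 and EIF4G3 were higher), and removal of the trend on length and signal 4 and 30 with -0.53 (18.2% and 19.6%). Batch 1 alone gave 0 higher and 35 lower calls by limma (5.54% and 14.6% of all genes), with EIF4G3 not called, batch 2 alone had a median of -0.78, and the median was -0.87 without both SF153 libraries of batch 1.

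Among members called in the deposited values, signs turned after quantile normalization for EEF1D (0.068), EIF4A1 (0.65) and EIF4A2 (0.74). Without mitochondrial and small RNA genes, signs turned for EIF2B1 (0.050), EIF2S3 (0.079), EIF3C (0.052), EIF4A2 (0.14) and EIF4G1 (0.034). In that setting the median of all genes moved by 0.312 to 0.28, which is above each of these values. With the trend removed, signs turned for EIF3C (0.020), EIF4A1 (0.20) and EIF4A2 (0.35). The cause was not tested. Of the 41 lower calls 27 held under every alternative run, among them EEF1A1, EEF1B2, EEF1G, EEF2, EIF5A, EIF2S1 and EIF3L. Unknown depth limits what can be said of members with a low signal, such as EIF4EBP3.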

Other observations

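Pseudogenes can take reads of the elongation factor genes. Of 23 pseudogene rows named after a member or its relative, 14 were tested, 2 were lower and 2 higher by limma, against 24.3% and 13.0% of all genes. EEF1A1P5 and EEF1A1P6 had log2 differences of -1.98 and -2.05, close to the -2.07 of EEF1A1. EEF1A1P19 had 0.57 and EEF1DP7 0.84, both called higher, whereas EEF1D was called lower (-0.66). The 7 EEF1A1 pseudogene rows added up to 1.70% to 2.09% of the EEF1A1 signal in DMSO and 3.53% to 7.57% in SF153, and the 3 of EEF1D to 2.90% to 4.59% and 9.84% to 12%. Reads shared between a gene and its copies cannot be assigned from these values.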
